A study of Mus musculus with 9 samples.

Results

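Csf1, Il34, Tnfsf11, Tnfrsf11b and Spp1, 5 secreted or membrane-bound regulators of osteoclast formation, were taken by name from a gene table of 56289 mouse Ensembl identifiers. All 5 were found in the table, and 3 of them (Csf1, Il34 and Spp1) were expressed at a level that could be tested. The poly-A RNA came from 9 libraries labelled RAW264.7, a macrophage-like line of BALB/c mice. Of these, 3 were untreated, 3 had received TNF-α for 24 h (TNF group), and 3 had received WBG, the Wang Bi granules of Chinese herbal medicine, together with TNF-α for 24 h (TNF plus WBG group). The labels used here name no genetic change in any group, and they state no dose of either agent and no culture time for the untreated cells. Time in culture and TNF therefore cannot be told apart in a comparison with untreated cells. The series seeks genes that differ among these groups in order to study how the granules act in rheumatoid arthritis.

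Osteoclasts, the cells that resorb bone, arise from macrophage precursors that receive a survival signal through the CSF1 receptor and a differentiation signal through RANK. Csf1 (macrophage colony-stimulating factor) and Il34 (interleukin 34) are the ligands of the CSF1 receptor. Tnfsf11 encodes RANKL, the ligand of RANK, and Tnfrsf11b encodes OPG (osteoprotegerin), a soluble decoy that binds RANKL. Spp1 encodes osteopontin, a phosphoprotein of bone and inflamed tissue that cells bind through integrins and CD44. In an arthritic joint, stromal cells such as synovial fibroblasts supply much of the RANKL and CSF1, while osteoclast precursors carry the receptors.

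The promoter windows shown are those of Csf1, which rose with TNF, and Spp1, which fell. TNF receptors activate the NF-kB transcription factors, and motifs of these factors were among those searched. The sequences are from RefSeq on GRCm38.p6 and run 5′ to 3′ on the gene's strand, from 250 bases before to 50 bases after the annotated start. Each is 300 bases long. Csf1 lies at chr3:107760420-107760719 on the minus strand, and capitals mark a match to the 10-base NF-kB consensus, which reads 5′ to 3′ on the opposite strand. Spp1 lies at chr5:104434861-104435160 on the plus strand, and capitals mark the match to the TATA motif TATAAA.
Csf1: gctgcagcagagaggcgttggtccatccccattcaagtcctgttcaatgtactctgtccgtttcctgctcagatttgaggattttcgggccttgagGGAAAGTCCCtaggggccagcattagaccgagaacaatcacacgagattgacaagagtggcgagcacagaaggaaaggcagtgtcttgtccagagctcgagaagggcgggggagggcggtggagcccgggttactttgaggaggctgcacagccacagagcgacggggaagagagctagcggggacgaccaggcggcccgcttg
Spp1: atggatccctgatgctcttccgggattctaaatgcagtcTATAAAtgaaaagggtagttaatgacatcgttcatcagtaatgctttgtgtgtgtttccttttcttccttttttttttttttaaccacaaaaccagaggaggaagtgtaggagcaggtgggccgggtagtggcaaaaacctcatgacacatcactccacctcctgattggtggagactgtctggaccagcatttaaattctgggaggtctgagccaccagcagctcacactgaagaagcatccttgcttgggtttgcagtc
The capitals of the Csf1 window begin at position -154 from the start. Of 32851 RefSeq promoter windows of this length, 51 held the same 10 bases on either strand, 0.155%. Looser NF-kB forms, GGG or GGA followed by any 5 bases and CC, were found in 50.8% and 48.3% of windows. They overlapped the capitals in Csf1 and also matched the Tnfsf11 window. The Spp1 window shown held none of these forms and no AP-1 motif TGANTCA, which 7.81% of windows held. Both strands were searched. Its TATAAA, at position -211, is a motif found in 13.6% of windows. RefSeq gives a second Spp1 start, whose window at chr5:104435942-104436241 on the plus strand is not printed and held none of the motifs searched. These are matches of letters in genes picked after their directions were seen, and no Il34 window was available. Binding was not measured here, and a link between the motifs and the changes with TNF was not tested.

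The libraries did not carry a macrophage profile. Of 19 macrophage identity genes, only Cd68 and Cd14 had a mean of at least 1 FPKM (fragments per kilobase and M fragments), and Ptprc, Itgam, Adgre1 and Cybb were listed at 0 throughout. The summed level of the macrophage list was 6.27 to 7.56 FPKM in untreated, 7.23 to 8.36 in TNF and 8.11 to 10.8 in TNF plus WBG libraries. Of 14 fibroblast markers 10 averaged 1 FPKM or more. Of the others, Lum was listed at 0 throughout, and Thy1 and Fap were at 0.08 FPKM or less in every library. Loxl1 had group means of 0.78 to 0.91 FPKM. The list's sum was 4350 to 4699 FPKM in untreated, 4567 to 4819 in TNF and 4521 to 4650 in TNF plus WBG libraries. With TNF 2 of the 10 tested markers rose (Col1a1 and Col1a2) and 3 fell (Postn, Pdgfrb and Vim). Of all genes 6.43% rose and 4.21% fell. The Vim call ended on omission of any library other than untreated replicate 3 or TNF replicate 2 (adjusted p from 0.0525 to 0.128), and the Col1a2 call with quantile normalization (0.236). Cd14 rose from 4.59 ± 0.45 untreated to 6.64 ± 0.86 FPKM with TNF plus WBG (limma adjusted p = 0.0254), a call that ended on omission of untreated replicates 2 or 3 or of TNF plus WBG replicates 1 or 2 (0.0585 to 0.0919). Among 9 osteoblast markers only Runx2 averaged 1 FPKM or more, while Ibsp was listed at 0. The part of cell type makeup in the results was not tested, and in bulk RNA fewer cells of a type and less RNA per cell cannot be told apart. Depth is not stated. If the smallest steps in the values of single-exon genes are single fragments, the libraries held 18.9 to 26.0 M (mega) fragments. Nothing says that replicates were separate cultures, and a p-value here covers the spread among these samples, which may be technical.

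**Figure D1:**
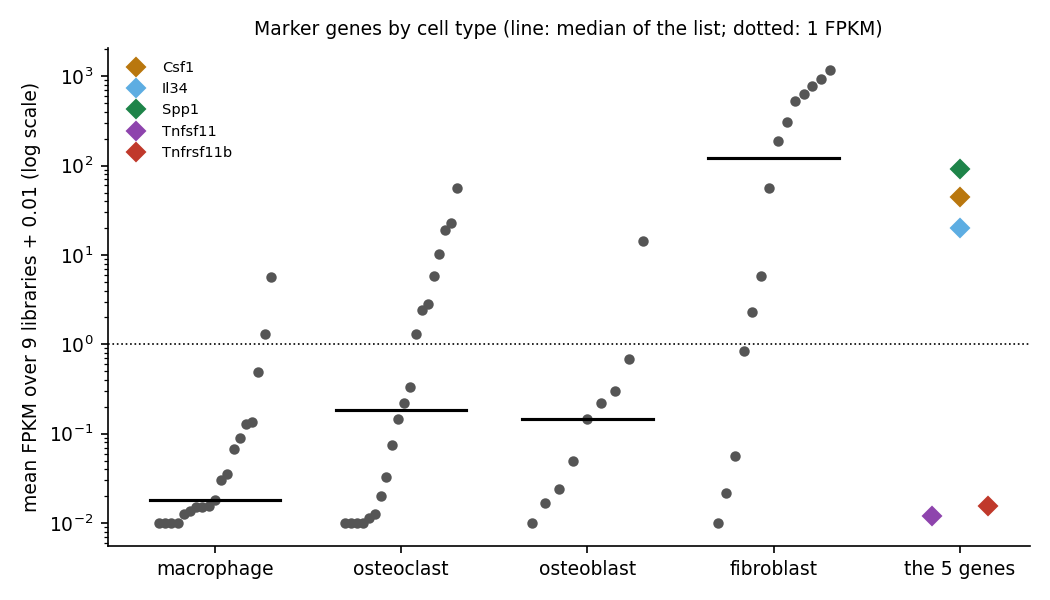
Mean FPKM over the 9 libraries plus 0.01, on a log axis, of each gene in the macrophage, osteoclast, osteoblast and fibroblast lists (dots, with a line at the list median), beside the 5 osteoclast regulators (diamonds). Most macrophage and osteoclast genes sit below the dotted line at 1 FPKM, Csf1, Il34 and Spp1 sit above it, and Tnfsf11 and Tnfrsf11b lie at the bottom of the axis.

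Among the ligands of the CSF1 receptor, Csf1 (ENSMUSG00000014599) showed the largest response to TNF. Its level was 20.2, 21.7 and 23.1 FPKM in the untreated libraries, 54.9, 60.3 and 52.5 FPKM in the TNF libraries, and 56.5, 56.4 and 55.3 FPKM in the TNF plus WBG libraries. Every treated library was above every untreated one, and the treated groups overlapped each other. With TNF the mean rose 2.58-fold, from 21.7 ± 1.47 to 55.9 ± 4.0 FPKM (SD, n = 3). The log2 fold change of FPKM plus 1 was 1.33 ± 0.06 (standard error; limma adjusted p = 2.67e-06), the 41st by size among 837 genes that rose. With TNF plus WBG the mean was 56.1 ± 0.69 FPKM, 2.59-fold above untreated (log2 1.33 ± 0.06, limma adjusted p = 3.18e-06). Between TNF plus WBG and TNF the log2 difference was 0.01 with a 95% interval from -0.13 to 0.15 (limma adjusted p = 0.991), or 0.911- to 1.11-fold. Its sign changed when single libraries were left out (-0.04 to 0.06).

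Il34 (ENSMUSG00000031750), the other ligand, also rose with TNF, by less. It was at 16.1, 15.3 and 17.7 FPKM in untreated, 24.2, 22.8 and 22.4 FPKM in TNF, and 19.6, 21.9 and 19.7 FPKM in TNF plus WBG libraries. The TNF plus WBG libraries lay between the other groups, with no overlap on either side. The mean rose 1.41-fold with TNF, from 16.4 ± 1.20 to 23.1 ± 0.97 FPKM (SD, n = 3; log2 0.48 ± 0.07, limma adjusted p = 0.00202). With TNF plus WBG it was 20.4 ± 1.32 FPKM, 1.24-fold above untreated (log2 0.30 ± 0.07, limma adjusted p = 0.0231). That call was lost without untreated replicate 1 (adjusted p = 0.0754), untreated replicate 2 (0.0725) or TNF plus WBG replicate 2 (0.0785), and with the replicate number as a block (0.0624). Between TNF plus WBG and TNF the log2 difference was -0.18, with a 95% interval from -0.33 to -0.02 before adjustment for the number of genes. It did not pass over all genes (limma adjusted p = 0.504).

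The balance of these ligands shifted toward Csf1 in treated cells. FPKM is a level per length, so the genes can be set against each other. The ratio of Csf1 FPKM to Il34 FPKM was 1.33 ± 0.08 in untreated, 2.42 ± 0.20 in TNF and 2.76 ± 0.16 in TNF plus WBG libraries (SD, n = 3). Their summed level was 38.1 ± 2.41 FPKM in untreated, 79.0 ± 4.11 FPKM in TNF and 76.5 ± 1.72 FPKM in TNF plus WBG libraries. Treated and untreated libraries did not overlap in the ratio or the sum (two-sided exact permutation p = 0.10 for each, the smallest that 3 against 3 libraries allow). For TNF plus WBG against TNF the exact permutation p was 0.20 for the ratio and 0.50 for the sum. The ratio and sum were computed after the values of both genes had been seen. They follow from the levels of Csf1 and Il34 given above and are no separate result.

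**Figure D2:**
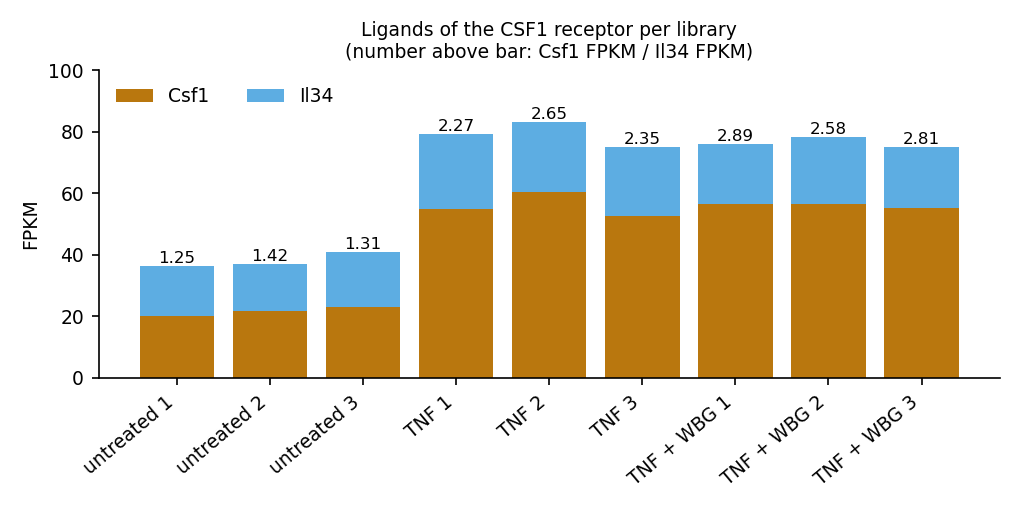
Level of Csf1 and Il34 in FPKM (stacked bars) in each of the 9 libraries, with the ratio of Csf1 FPKM to Il34 FPKM above each bar. Untreated libraries have ratios of 1.25 to 1.42 and all treated libraries have ratios of 2.27 to 2.89.

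RANKL and its decoy were at the floor of the measurement in every group. Tnfsf11 (ENSMUSG00000022015) was at 0.02 FPKM in untreated replicate 1 and listed at 0 in the 8 other libraries. Tnfrsf11b (ENSMUSG00000063727) was listed at 0 in 6 libraries and was at 0.02 FPKM in TNF replicates 2 and 3 and in TNF plus WBG replicate 1. Neither gene reached the minimum for the fit (1 FPKM or more in 3 or more libraries). With 3 against 3 libraries a two-sided exact permutation test cannot go below 0.10 (p from 0.40 to 1.0 here), so it says nothing about a difference between groups. No RANKL to OPG ratio can be formed from these values, and a low level cannot be told from absence without counts.

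Spp1 (ENSMUSG00000029304) was the most abundant of the 5 genes, and it fell with TNF and rose when WBG was added. Its level was 93.0, 92.2 and 90.5 FPKM in untreated, 83.3, 78.6 and 80.0 FPKM in TNF, and 102.3, 102.0 and 99.6 FPKM in TNF plus WBG libraries. No group overlapped another: TNF libraries were lowest and TNF plus WBG libraries highest. With TNF the mean fell from 91.9 ± 1.30 to 80.7 ± 2.41 FPKM (SD, n = 3), by 0.19 ± 0.03 on the log2 scale (limma adjusted p = 0.00788). With WBG added to TNF it was 101.3 ± 1.51 FPKM, 1.26-fold above TNF alone (log2 0.33 ± 0.03, 95% interval 0.25 to 0.40, limma adjusted p = 0.00917). Spp1 had the 9th, and thus smallest, fold among the 9 genes that rose in that comparison, and the 7th smallest p among the 6370 genes with higher values. Its replicates were tight, with an SD of 1.41 to 2.99% of the mean, where the median gene of at least 5 FPKM had 5.25 to 5.55%.

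The TNF plus WBG level of Spp1 also exceeded the untreated level, 1.10-fold (log2 0.14 ± 0.03, limma adjusted p = 0.0338). The TNF libraries enter this comparison only through the shared estimate of the spread. It was the least secure of the 3 calls. Each omission of an untreated or TNF plus WBG library ended it (adjusted p from 0.0504 to 0.114), as did the omission of TNF replicate 3 (0.0552) and the replicate block (0.0514). The rise over TNF kept a log2 of 0.31 to 0.35 over the omissions, and its adjusted p was 0.0578 without TNF replicate 2, 0.0647 without TNF replicate 3 and 0.0523 without TNF plus WBG replicate 1.

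**Figure D3:**
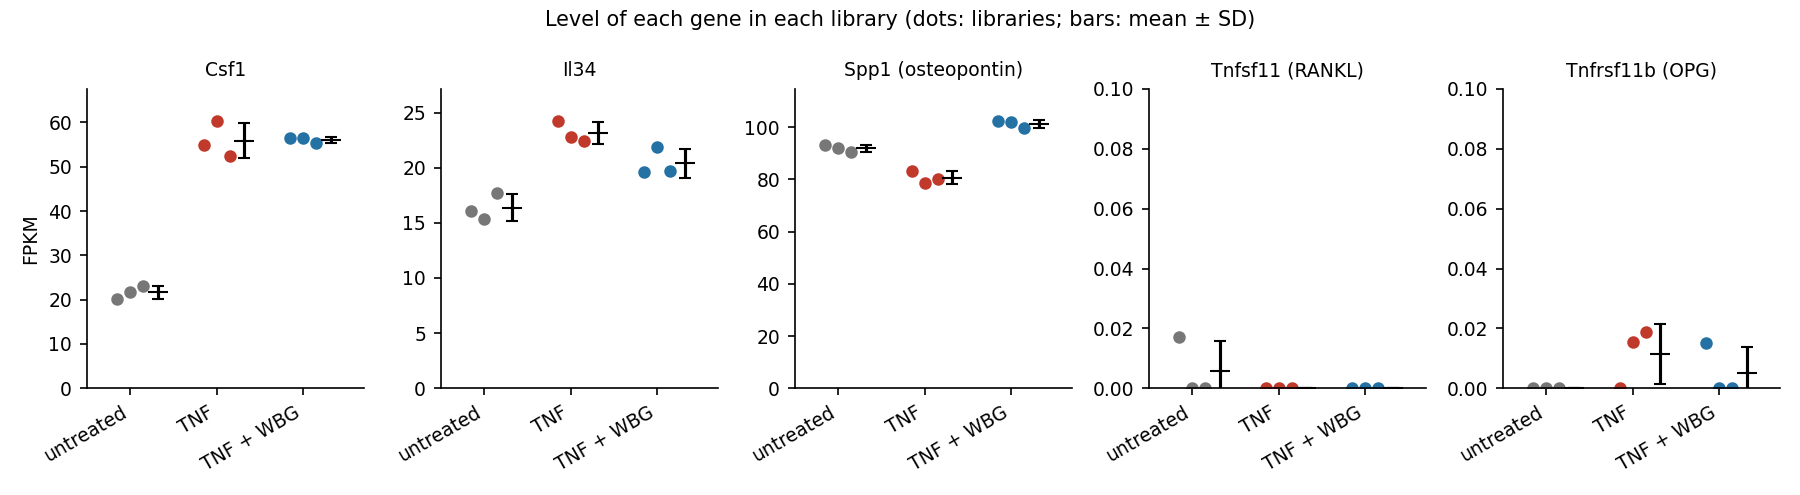
FPKM of Csf1, Il34, Spp1, Tnfsf11 and Tnfrsf11b in each library (dots) by group, with mean and SD (n = 3) as bars. The axes start at 0 and differ between genes, and those of Tnfsf11 and Tnfrsf11b end at 0.1 FPKM. Csf1 and Il34 are higher in both treated groups, while Spp1 is lowest with TNF and highest with TNF plus WBG.

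Counted together, all 3 testable genes passed for TNF against untreated, Csf1 and Il34 upward and Spp1 downward, in a comparison where 10.6% of 13026 genes passed, 6.43% upward and 4.21% downward. For TNF plus WBG against TNF, 1 of the 3 passed, Spp1, upward, where 0.0998% of genes did (0.0691% rose and 0.0307% fell). All 3 rose for TNF plus WBG against untreated, where 9.19% of genes passed (5.52% rose and 3.67% fell). That count of 3 became 1 with a replicate block, and also without untreated replicate 1, untreated replicate 2 or TNF plus WBG replicate 2. The groups did not overlap for 3 of 3 genes with TNF (30% of all genes), for 2 of 3 between the treated groups (14.7%) and for 3 of 3 between TNF plus WBG and untreated (28.1%). The order of levels was Spp1, Csf1, Il34 in each group, with no overlap between neighbours. Tnfrsf11b and Tnfsf11 came last and could not be ordered. By mean level Spp1 ranked 608th, Csf1 1516th and Il34 3866th in the 13026 genes tested.

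**Figure D4:**
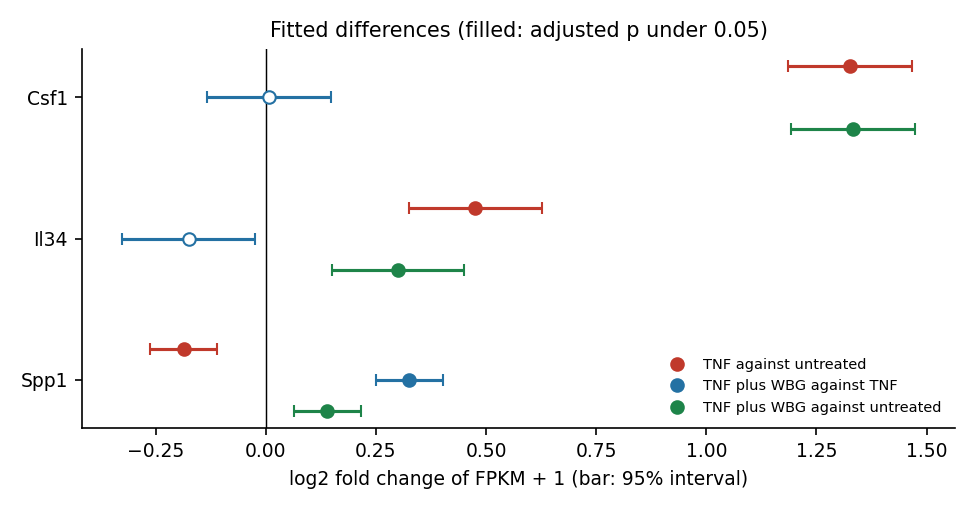
Log2 fold change of FPKM plus 1 with its 95% interval for Csf1, Il34 and Spp1 in the 3 comparisons (filled points have an adjusted p under 0.05). Csf1 lies at 1.33 in both comparisons with untreated cells and at 0.01 between the treated groups, and Spp1 lies at -0.19 with TNF and at 0.33 with WBG added.

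Receptors of osteopontin were present, while the main receptors of Csf1, Il34 and RANKL were nearly missing. Csf1r, the receptor of Csf1 and Il34, was at 0.07 FPKM or less and Tnfrsf11a, the RANK gene, at 0.03 FPKM or less in every library. Lgr4, an alternative receptor of RANKL, lay between 3.38 and 4.05 FPKM. Of 15 receptor and binding partner genes 11 were tested, of which 4 rose, 1 fell and 6 did not pass with TNF (median log2 0.06, beside 0.00 over all genes). Of all genes 6.43% rose and 4.21% fell. Itga8, an integrin subunit that pairs with beta 1 and binds osteopontin, rose 4.15-fold from 1.43 ± 0.19 to 5.96 ± 0.19 FPKM (log2 1.52 ± 0.08, limma adjusted p = 4.66e-06). Cd44, the hyaluronan receptor that also binds osteopontin, rose 1.24-fold from 31.9 ± 2.29 to 39.5 ± 1.10 FPKM (limma adjusted p = 0.0106).

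The reported alternative receptors of interleukin 34 differed in direction. Ptprz1, a receptor tyrosine phosphatase, went from 0.93 ± 0.17 to 2.35 ± 0.10 FPKM with TNF (log2 0.80, limma adjusted p = 0.000371). Its untreated libraries had 0.74 to 1.04 FPKM, so it met the minimum for the fit only with treated libraries counted. Sdc1, the proteoglycan syndecan 1, fell from 47.8 ± 0.96 to 37.5 ± 3.88 FPKM (log2 -0.35, limma adjusted p = 0.0295). The Sdc1 call was lost without any of the untreated replicates or TNF replicates 1 and 2 (adjusted p from 0.0643 to 0.0996). Itga4 rose 1.62-fold to 2.13 ± 0.19 FPKM, a call that ended on omission of untreated replicates 1 or 2 or of TNF replicates 1 or 3 (adjusted p from 0.0615 to 0.0716). Itgav, the alpha V subunit of the classical osteopontin receptors, had 37.5 ± 4.18 FPKM untreated and 41.5 ± 2.71 FPKM with TNF (limma adjusted p = 0.372). For TNF plus WBG against TNF none of the 11 passed in limma (median log2 -0.02), and 2 had an unadjusted p under 0.05, as did 9.06% of all genes. Against untreated the same 4 genes, Itga8, Ptprz1, Itga4 and Cd44, passed upward with TNF plus WBG and none fell. Of all genes 5.52% rose and 3.67% fell in that comparison. The Itga4 call ended there on omission of untreated replicates 1 or 2 or of any TNF plus WBG replicate (adjusted p from 0.0505 to 0.0951).

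Genes listed as sheddases (proteases that release membrane-bound proteins) or as activating proteases moved in both directions with TNF. Of 8 tested from a list of 11, 3 rose and 3 fell (median log2 0.09). Whether each of them acts on the regulators above was not tested. Of all genes 6.43% passed upward and 4.21% downward. Adam17, the sheddase of TNF and of membrane-bound CSF1, rose 1.39-fold from 15.5 ± 0.16 to 21.6 ± 0.91 FPKM (log2 0.45 ± 0.06, limma adjusted p = 0.00136). Adam19, a related metalloprotease, rose 1.5-fold (limma adjusted p = 0.00191). Mmp9, gelatinase B, which osteoclasts also make, went from 0.18 ± 0.04 to 4.14 ± 0.17 FPKM (log2 2.12, limma adjusted p = 8.30e-07). Mmp9 had 0.15 to 0.23 FPKM untreated and met the minimum for the fit only through the treated libraries. Its place among the rises over untreated depends on that. Plat, tissue plasminogen activator, fell from 67.4 ± 0.88 to 53.4 ± 1.86 FPKM (limma adjusted p = 0.00211). Adam10 (log2 -0.19, limma adjusted p = 0.0183) and the proprotein convertase Furin (-0.16, 0.0426) were lower as well. The Adam10 call ended without untreated replicate 3, TNF replicate 1 or TNF replicate 3 (adjusted p from 0.0625 to 0.0674). The Furin call ended with every omission but that of untreated replicate 3 (0.0533 to 0.127) and with the replicate block (0.0888). Without TNF replicate 1 or TNF replicate 3 only 1 of the 3 falls passed. None of the 8 passed in limma for TNF plus WBG against TNF (median log2 0.00), and 3 had an unadjusted p under 0.05, where 9.06% of all genes had one. There Mmp9 had a log2 of -0.32 (limma adjusted p = 0.376). Against untreated, TNF plus WBG gave 3 rises, the same genes, and 1 fall, Plat, where 5.52% of all genes rose and 3.67% fell. Without untreated replicate 3 the falls were 2.

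Of 27 genes listed as regulators of RANKL and OPG output in stromal cells, 20 were tested, and with TNF 2 rose, 1 fell and 17 did not pass (median log2 0.09). That is 3 of 20 called, where 10.6% of all genes were. At an unadjusted p under 0.05 the list had 11 of 20, where 24% of all genes had one. The gene lists were chosen with earlier results of these data known, so such counts do not test a list as a set. Il6st, the shared receptor subunit gp130, rose 1.37-fold from 44.6 ± 1.04 to 61.0 ± 4.91 FPKM (limma adjusted p = 0.00135). Osmr, the oncostatin M receptor, rose 1.37-fold to 7.37 ± 0.45 FPKM (limma adjusted p = 0.0281). The Osmr call ended on omission of untreated replicates 2 or 3, or of TNF replicates 1 or 2 (adjusted p from 0.0713 to 0.0966). The list held 1 rise without untreated replicate 2 or TNF replicate 2. Runx2, the transcription factor that commits cells to the osteoblast lineage, fell from 18.8 ± 1.43 to 11.4 ± 0.66 FPKM (log2 -0.67 ± 0.08, limma adjusted p = 0.000852). It stayed lower with TNF plus WBG, at 12.8 ± 1.18 FPKM (limma adjusted p = 0.00383 against untreated).

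Among the 17 that did not pass with TNF, 8 had an unadjusted p under 0.05 (Ctnnb1, Lif, Ptges, Ptgs2, Tgfbr2, Tnfrsf1a, Vdr and Wnt5a). Vdr, the vitamin D receptor, a classical inducer of RANKL, had 6.05 ± 0.54 FPKM untreated and 5.04 ± 0.32 FPKM with TNF (limma adjusted p = 0.106). Ptgs2, the inducible cyclooxygenase, had 5.22 ± 0.59 and 4.24 ± 0.32 FPKM (0.143). Tnfrsf1b, TNF receptor 2, had 16.6 ± 0.90 and 16.0 ± 0.47 FPKM (0.640). For TNF plus WBG against TNF none of the 20 passed in limma (median log2 0.05), 3 had an unadjusted p under 0.05 (9.06% of all genes), and 1 fell without TNF replicate 1. Against untreated, TNF plus WBG gave 3 rises, with Ptges, the prostaglandin E synthase, added at 1.80-fold (limma adjusted p = 0.0204). Of all genes 5.52% rose in that comparison. The Ptges call was lost without TNF plus WBG replicate 1 (adjusted p = 0.0684) or 3 (0.0663) and with the replicate block (0.0511).

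Osteoclast genes themselves were mostly missing. Of 20 listed, 8 were tested, and Acp5, Atp6v0d2, Tyrobp and Trem2 were listed at 0 throughout. With TNF 2 of the 8 rose and none fell, where 6.43% of all genes rose and 4.21% fell. Nfatc1, the transcription factor that drives osteoclast differentiation, rose 1.45-fold with TNF, from 2.24 ± 0.05 to 3.26 ± 0.31 FPKM (log2 0.39, limma adjusted p = 0.00992). Tcirg1, a proton pump subunit found in lysosomes as well as in osteoclasts, rose 1.11-fold (limma adjusted p = 0.0474). The omission of any library other than untreated replicate 2 ended the Tcirg1 call (adjusted p from 0.0665 to 0.130) and so did the replicate block (0.0744). None of the 8 passed in limma for TNF plus WBG against TNF, and none for TNF plus WBG against untreated, with 3 at an unadjusted p under 0.05 in each (9.06% and 22.8% of all genes). Without TNF plus WBG replicate 3, 1 rose over untreated. Among other growth factors for blood cells, Flt3l rose 1.51-fold with TNF (limma adjusted p = 0.0277). Kitl, the KIT ligand, fell from 19.1 ± 2.80 to 14.0 ± 0.89 FPKM (0.0243). The Flt3l call ended on omission of untreated replicates 1 or 3 or of TNF replicates 1 or 3 (adjusted p from 0.0742 to 0.0948). The Kitl call ended on omission of untreated replicates 2 or 3 or of TNF replicates 2 or 3 (0.0545 to 0.0851) and with the replicate block (0.0552). Csf2 and Csf3, the other colony-stimulating factors, were at 0.25 FPKM or less in every library. Ibsp, Dmp1, Dspp and Mepe, the other small integrin-binding glycoproteins of the osteopontin family, did not exceed 0.50 FPKM in any library. Of the bone matrix genes listed with them, Sparc (group means 1014 to 1094 FPKM) and Mgp were tested, and neither passed with TNF. Mgp fell from 38.7 ± 4.64 FPKM untreated to 30.5 ± 1.00 with TNF plus WBG (limma adjusted p = 0.047). In that comparison 3.67% of all genes fell. The Mgp call ended on omission of any library but untreated replicate 3 or TNF replicate 2 (adjusted p from 0.0625 to 0.137).

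**Figure D5:**
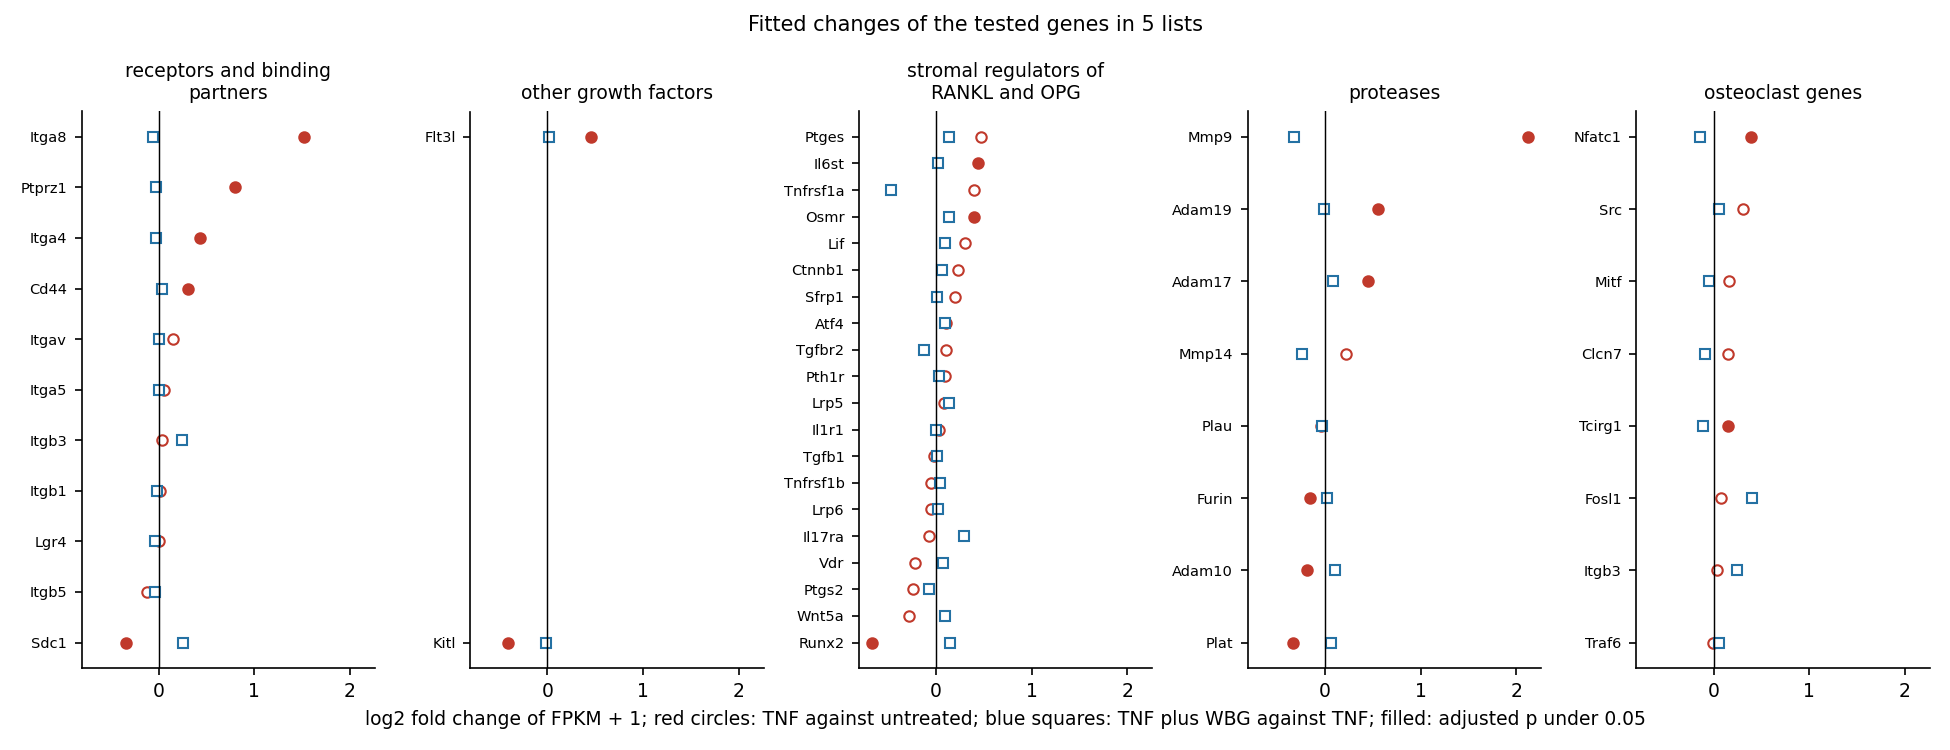
Log2 fold change of FPKM plus 1 for the tested genes of 5 lists, for TNF against untreated (red circles) and TNF plus WBG against TNF (blue squares), with filled symbols for an adjusted p under 0.05. Mmp9, which was under 1 FPKM untreated, lies farthest right with TNF at 2.12, followed by Itga8 at 1.52, and no blue square is filled.

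Csf1, Il34 and Spp1 were each set against genes with a mean of at least 5 FPKM and without predicted or clone names. The genes whose log2 levels followed each of them most closely over the 9 libraries differed between the 3. These correlations are descriptions over libraries that share groups. For Csf1 they were Cdhr4, Rnd1 and Tmem176a (Pearson r = 0.995 each), the complement component C3 (0.995) and the copper transporter Slc31a2 (0.994). C3 went from 8.77 FPKM untreated to 167 with TNF and 172 with TNF plus WBG. For Il34 they were Zswim4 (0.982), Fyb (0.977), Fam111a (0.971), the cell cycle kinase Cdk6 (0.967) and B4galt5 (0.961). Cdk6 had means of 5.79, 11.7 and 9.35 FPKM in the untreated, TNF and TNF plus WBG groups. For Spp1 they were Armt1 (0.939), Ap3b1 (0.920), Hectd4 (0.915), Myo1d (0.902) and the phosphate exporter Xpr1 (0.899). Armt1 had means of 8.12, 5.58 and 10.8 FPKM. Csf1 and Il34 correlated at 0.884, Csf1 and Spp1 at -0.09, and Il34 and Spp1 at -0.40.

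In the reference annotation, exons of Spp1 share 309 of 1648 bases with Gm42793, a predicted gene on the same strand listed at up to 0.77 FPKM. Il34 shares exon bases with the antisense genes Gm15894 and Gm15895, at 0.22 FPKM or less, and Adam17 with Iah1 on the opposite strand, at up to 17.0 FPKM. Csf1r shares 873 of 5774 exon bases with Hmgxb3 on the opposite strand, at up to 12.8 FPKM. Exons of Adam19, Furin, Itga4, Itga8, Itgav, Runx2 and Flt3l also overlap another gene. The protocol does not mention strand, so reads of such pairs cannot be told apart.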

How the data were processed

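Values are FPKM per gene and library, made by the authors and deposited in a single table. The build, like the aligner, annotation and FPKM program, is not given in the sources used here. Libraries were poly-A selected, paired-end, on an Illumina NovaSeq, per the labels' protocols. All 9 columns were used, with groups taken from the sample titles. Symbols came from GENCODE M21 (1145 identifiers unmatched). Genes with FPKM of at least 1 in at least 3 libraries (13026) were fitted as log2(FPKM + 1) with limma 3.58.1 (R 4.3.3), with trend, all 9 libraries and group as the term. Tests were two-sided, with Benjamini-Hochberg adjustment over all genes fitted and a threshold of 0.05. A fold is the quotient of group means in FPKM, printed where both reach 1. Log2 fold changes hold the pseudocount and understate changes of low genes. Genes under the minimum, and ratios, had exact permutation tests.

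Depth was inferred from single-exon genes, where FPKM times length fell within 0.02 of a whole step for 25.4 to 28.1% of values (4% if evenly spread). No counts were recovered. The 5 genes and the gene lists were chosen with earlier results of these data known. Named genes are the 5 regulators, up to 4 passing genes per list and direction, 9 genes given always (Csf1r, Tnfrsf11a, Tnfrsf1a, Tnfrsf1b, Cd44, Itgav, Adam17, Vdr and Ptgs2), and the 5 best correlated genes of at least 5 FPKM. The correlated genes exclude predicted or clone names and identifiers with no symbol. Promoter windows came from RefSeq (GRCm38.p6). The set of windows used here held Csf1, Spp1 and Tnfsf11 but not Il34 or Tnfrsf11b, which were therefore not searched for motifs. Tables were made with pandas 2.3.3 and numpy 2.4.6 under python 3.11.15, and plots with matplotlib 3.10.9. Alternatives were pseudocounts of 0.1 and 5, no filter, a mean of at least 5 FPKM, median-ratio and quantile scaling, the 6 libraries compared alone, no trend, robust limma, a replicate block, and omission of each library.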

Additional observations from a re-analysis of the deposited data

How the results depend on the processing

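Over 19 alternatives each, Csf1 and Il34 kept their rise with TNF (log2 1.19 to 1.37 and 0.40 to 0.53), Spp1 its fall (-0.21 to -0.17) and Csf1 its rise with TNF plus WBG over untreated (1.20 to 1.38), all with an adjusted p under 0.05. For Spp1 between TNF plus WBG and TNF, a log2 of 0.33 had an adjusted p of 0.0769 with only the 6 libraries compared and 0.0659 without trend, and omissions gave 0.31 to 0.35. For TNF plus WBG against untreated, Il34 at 0.30 had an adjusted p of 0.0531 with no filter, 0.0559 with the 6 libraries and 0.0624 with the replicate block, and omissions gave 0.25 to 0.35. Spp1 at 0.14 had 0.0585 with the 6 libraries, 0.0924 without trend and 0.0514 with the replicate block, 0.13 (0.0655) with quantile normalization, and 0.13 to 0.15 over omissions. The calls among the 5 genes became 0 for TNF plus WBG against TNF with the 6 libraries and without trend (0 to 1 over omissions), and 1 for TNF plus WBG against untreated with the 6 libraries and with the block (1 to 3 over omissions). Of all genes, 1386 passed for TNF against untreated (920 to 1299 over omissions; lowest without TNF replicate 3). For TNF plus WBG against TNF 13 passed, 7 with the 6 libraries, 8 with the block and 8 to 14 over omissions (8 without untreated replicate 1). The cause was not tested. Of the counts per list and direction over these alternatives, 947 stayed within 1.5 times and 79 did not, all of them between 0 and 5 genes. With a mean of at least 5 FPKM, which tests fewer genes, the receptor list held 1 rise in place of 4 in both comparisons with untreated. Replicate numbers showed no pairing of the libraries over all genes tested: deviations of same-numbered libraries correlated at -0.07 to 0.11, others at -0.10 to 0.09. A pairing limited to some genes might not show there. With no counts in the table, depth limits what can be said of Tnfsf11 and Tnfrsf11b.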

Other observations

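Tnfrsf1a, the main TNF receptor, split the TNF group. It was at 34.7 FPKM in TNF replicate 1 and at 56.1 and 56.8 FPKM in TNF replicates 2 and 3, while the untreated libraries had 36.0 to 36.7 FPKM and the TNF plus WBG libraries 34 to 35 FPKM. It did not pass for TNF against untreated (log2 0.40, limma adjusted p = 0.167) or for TNF plus WBG against TNF (-0.47, 0.482). Without TNF replicate 1, the library that differed, both passed (limma adjusted p = 6.84e-05 and 0.000802). That outcome follows from leaving out the discordant library, so it cannot show a response of Tnfrsf1a. The source of the split was not tested. Csf1, Il34 and Spp1 showed no such split in that group.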
